A study of Homo sapiens with 6 samples.

Results

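Endoplasmic reticulum (ER) chaperones and the genes of the unfolded protein response were followed in A549 cells in which the membrane protein gene C19orf12 had been lowered by RNA interference. The 39 genes were chosen by name, with earlier results of these data known. They fall by role into 8 stress sensors with their transcription factors and proteases, 11 chaperones and cochaperones, 7 genes of oxidative folding and 13 of translocation and degradation. All 39 were found among the 20823 genes listed in any library, and 38 passed the filter on low counts that left 14812 genes for testing. A549 is a human lung adenocarcinoma line. The control cells carried a scrambled shRNA and the others an shRNA against C19orf12, with 3 libraries of polyadenylated RNA in each group, made from Trizol-extracted RNA with a TruSeq kit. The labels name no second shRNA, so effects of the hairpin itself and of lower C19orf12 cannot be told apart, and they do not say whether the replicates were separate cultures, so that p-values reflect only how far these libraries differ. Total estimated counts ran from 10229890 to 10647585 per library. Within every set of 3 values below, the order is replicate 1, 2, 3.

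Proteins that enter the ER fold with the help of chaperones such as BiP (encoded by HSPA5) and GRP94 (HSP90B1), of the lectins calnexin and calreticulin, which hold glycoproteins, and of protein disulfide isomerases, which form disulfide bonds with oxidizing power from the ERO1 enzymes. Proteins that fail to fold are drawn back through the membrane and degraded by the ubiquitin system. Unfolded protein in the ER activates the sensors IRE1 (ERN1), PERK (EIF2AK3) and ATF6: IRE1 splices the mRNA of XBP1, PERK phosphorylates a translation initiation factor and so favours translation of ATF4, and ATF6 is cut in the Golgi by the site-1 and site-2 proteases (MBTPS1 and MBTPS2). The resulting transcription factors raise the transcription of chaperone and degradation genes. The deposited values are summed per gene, so spliced and unspliced XBP1 mRNA, and the activity of any sensor, were not measured.

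C19orf12 (Entrez gene 83636) was lower in every knockdown library, at 42.5, 41.1 and 63.3 CPM (counts relative to the TMM-scaled total of the library) in the scramble libraries and 24.2, 26.3 and 25.2 CPM after knockdown (log2 fold change -0.95, adjusted p = 0.015 by edgeR). C19orf12 no longer passed when knockdown replicate 1 (-0.92, adjusted p = 0.0908), 2 (-0.99, adjusted p = 0.0755) or 3 (-0.95, adjusted p = 0.0879) was left out. Without scramble replicate 3, its highest library, it was lower by less (-0.73, adjusted p = 3.17e-08). The knockdown mean was 51.6% of that of all scramble libraries and 60.4% of that of scramble replicates 1 and 2. Scramble replicate 3 stood apart: chi-square per degree of freedom over gene counts was 66.1 and 65.3 against scramble replicates 1 and 2, while the other pairs within a group gave 1.59 to 1.93. Its correlation in log2 CPM with the other scramble libraries was 0.952 and 0.953 across genes, which are not independent replicates, against 0.991 between those. Main results below are therefore given with and without it. The common dispersion put the coefficient of variation at 18.9% over the full set and at 3% after dropping this library, so that small differences pass the test in the fit without it. Of the lung epithelial markers chosen for A549, 10 of 10 were listed, with summed levels of 19492 to 22573 CPM in the scramble and 27625 to 28115 CPM in the knockdown libraries; KRT8 (1.79, adjusted p = 2.46e-04) and KRT18 (1.31, adjusted p = 0.00135) rose, as did KRT19 (3.50, adjusted p = 0.00563), which like EPCAM was under 3 CPM in every library. Of the 6 fibroblast markers 4 (COL1A2, COL3A1, DCN, PDGFRB) were at no more than 3 counts in every library, of the 6 immune markers 3, CD3E and TYROBP among them, were not listed, and of the 5 endothelial markers 4 (VWF, CDH5, KDR, TEK) were at no more than 3 counts or not listed. Their summed levels were 36.6 to 47.8, 53.4 to 62.1 and 2.80 to 4.17 CPM in the scramble libraries, and 24.1 to 26.4, 61.5 to 70.0 and 3.40 to 4.07 CPM after knockdown, and COL1A1, most of the fibroblast sum, fell (-0.75, adjusted p = 0.0191). LUM, the other fibroblast marker above 3 counts, had 0 counts in every scramble library and 5, 6 and 4 counts after knockdown, and was not tested. CD68, most of the immune sum, was at 36.2, 36.6 and 49.9 CPM in the scramble libraries and 46.7, 52.7 and 52.3 CPM after knockdown. CD68 was not called by edgeR with all 6 libraries (0.31, adjusted p = 0.333) and rose without scramble replicate 3 (0.47, adjusted p = 8.43e-06). The immune markers LYZ and PTPRC were called in neither fit. In bulk RNA, fewer cells of a type and less RNA per cell cannot be told apart. The part of these marker levels in the results was not tested.

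Knockdown libraries held 49.5% of the mean control level of the BiP gene HSPA5. The sensor gene ERN1, its target XBP1, the chaperone gene HYOU1 and the degradation gene HERPUD1 were also lower. The transcription factor gene CREB3L2 was higher. Most other genes of the ER folding machinery, among them HSP90B1 and the main disulfide isomerase genes, were not called by edgeR. By edgeR's quasi-likelihood test with Benjamini-Hochberg adjustment, 5 of the 38 tested genes fell and 1 rose, or 15.8% in all, against 11.5% of the 14812 genes tested, and 13.2% against 5.64% for genes that fell, and 1 of 38 against 5.89% for genes that rose. The share of changed genes in either direction was thus near that of all genes. The genes were chosen with earlier results of these data known, so these shares are a description. Their median log2 fold change was -0.06, against 0.02 over all genes tested. In the fit without scramble replicate 3, 17 of the 38 were called lower (44.7%, against 23.8% of 15029 genes) and 9 higher (23.7%, against 25.7%), with a median of -0.11 against 0.003 over all genes tested there. All 3 knockdown libraries lay below all 3 scramble libraries for 10 genes and above them for 4, or 36.8% of the 38, against 37.0% of all genes tested. With scramble replicate 3 set aside the groups did not overlap for 30 of the 38, against 64.8% of all genes tested.

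**Figure D1:**
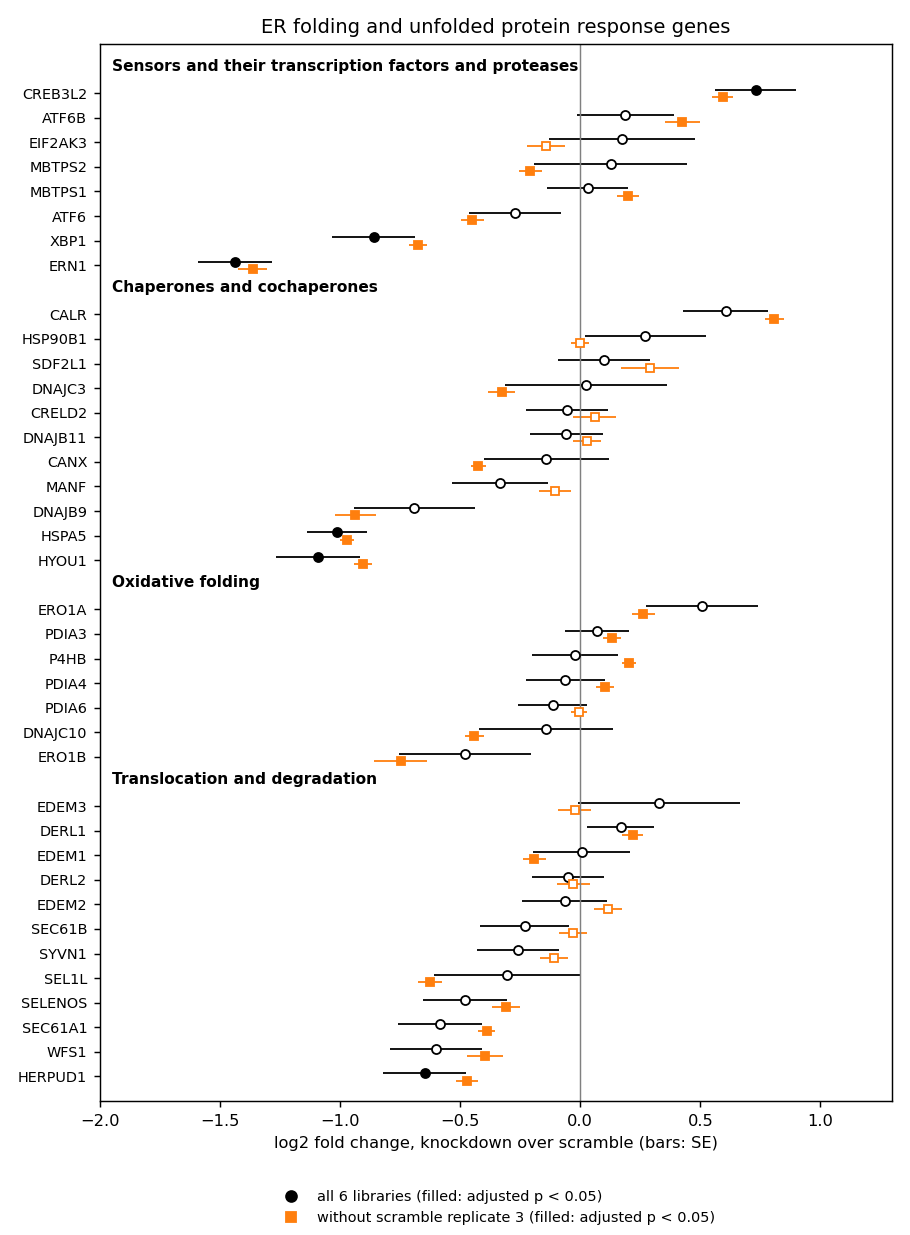
Log2 fold change of knockdown over scramble for the 38 tested genes, by role, with all 6 libraries (black circles) and without scramble replicate 3 (orange squares); bars are standard errors and filled symbols have an adjusted p under 0.05 by edgeR. ERN1, HYOU1, HSPA5, XBP1 and HERPUD1 lie left of 0 and CREB3L2 right of 0 in both fits, with shorter errors without scramble replicate 3.

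The promoters of the 4 of the 5 genes that fell for which an exact match to a known ER stress motif was found are shown first, since these genes fell in the same comparison. They are followed by 2 chaperone genes that hold ERSE and did not fall. Stretches of 250 bases before the gene's start are from RefSeq on GRCh38.p14 and read 5′ to 3′ along the gene. Capitals mark exact matches, on either strand, to the ER stress response element ERSE (CCAAT and CCACG with any 9 bases between them), in which NF-Y occupies the CCAAT part and ATF6 the other, to ERSE-II (ATTGG and CCACG with any 1 base between them), or to the XBP1-binding element UPRE (TGACGTGG).
HSPA5, chr9:125241344-125241593, - strand: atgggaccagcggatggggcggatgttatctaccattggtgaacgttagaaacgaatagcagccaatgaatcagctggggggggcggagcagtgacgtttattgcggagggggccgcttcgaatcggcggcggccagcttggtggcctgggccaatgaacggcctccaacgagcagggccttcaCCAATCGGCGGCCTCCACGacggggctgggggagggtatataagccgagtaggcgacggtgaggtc
XBP1, chr22:28800570-28800819, - strand: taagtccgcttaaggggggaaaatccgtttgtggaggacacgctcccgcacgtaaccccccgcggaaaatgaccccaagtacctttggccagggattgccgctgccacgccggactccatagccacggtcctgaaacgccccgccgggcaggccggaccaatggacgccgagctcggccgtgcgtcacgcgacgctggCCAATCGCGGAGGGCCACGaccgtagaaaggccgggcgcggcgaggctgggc
HYOU1, chr11:119057206-119057455, - strand: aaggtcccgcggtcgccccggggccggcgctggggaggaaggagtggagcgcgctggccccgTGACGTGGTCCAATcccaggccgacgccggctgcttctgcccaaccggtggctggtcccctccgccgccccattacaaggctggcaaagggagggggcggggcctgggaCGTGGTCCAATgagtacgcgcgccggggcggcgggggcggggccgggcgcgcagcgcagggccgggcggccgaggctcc
HERPUD1, chr16:56931892-56932141, + strand: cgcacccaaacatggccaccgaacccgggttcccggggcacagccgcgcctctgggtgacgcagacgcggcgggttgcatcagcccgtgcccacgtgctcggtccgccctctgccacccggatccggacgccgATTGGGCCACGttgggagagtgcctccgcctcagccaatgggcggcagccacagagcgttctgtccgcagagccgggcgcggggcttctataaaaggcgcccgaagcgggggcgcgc
HSP90B1, chr12:103930160-103930409, + strand: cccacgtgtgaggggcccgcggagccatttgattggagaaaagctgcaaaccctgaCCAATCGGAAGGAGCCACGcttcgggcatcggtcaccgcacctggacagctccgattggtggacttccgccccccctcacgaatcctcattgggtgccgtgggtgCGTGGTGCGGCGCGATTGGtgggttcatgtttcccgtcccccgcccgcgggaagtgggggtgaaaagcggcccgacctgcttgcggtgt
CALR, chr19:12938359-12938608, + strand: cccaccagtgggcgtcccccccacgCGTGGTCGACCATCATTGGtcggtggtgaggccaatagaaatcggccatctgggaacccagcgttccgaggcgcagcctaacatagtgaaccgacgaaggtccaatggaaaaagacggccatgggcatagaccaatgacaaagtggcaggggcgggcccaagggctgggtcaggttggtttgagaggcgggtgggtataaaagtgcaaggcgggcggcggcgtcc

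Exact matches to ERSE were rare among all promoters and frequent among these genes. A promoter was found for 36 of the 39 genes, and 8 of them (22.2%) held ERSE in the 300 bases from 250 before to 50 after a start, against 25 of 27305 genes (0.0916%) in the whole promoter table. ERSE-II was held by 3 of 36 (8.33%) against 19 of 27305 (0.0696%) and UPRE by 2 of 36 (5.56%) against 253 (0.927%). The genes were chosen for known roles, for which such elements were described, and with earlier results of these data known. These shares are therefore a description. XBP1 has a second annotated start, whose window held no match. In HSPA5 the ERSE match began 66 bases before the start, and in XBP1 it began 52 bases before it. HYOU1 held ERSE-II on the reverse strand at 185 and at 79 bases before the start, the former overlapping a UPRE match that began at 188. HERPUD1 held ERSE-II at 117 bases, HSP90B1 held ERSE at 194 and, on the reverse strand, at 89 bases, and CALR held it on the reverse strand at 225 bases. The other genes with ERSE were CANX, CRELD2, ERO1B and PDIA6, while SDF2L1 held ERSE-II and DNAJC10 held UPRE.

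Genes with a match had log2 fold changes on both sides of 0. Of the 12 genes that held any of the motifs, 4 fell and 0 rose with all 6 libraries, against 5.64% and 5.89% of all genes tested. CALR narrowly missed that edgeR call (adjusted p = 0.0585). Of the 24 tested genes with a promoter and no match, ERN1 fell and CREB3L2 rose. The median log2 fold change was -0.14 in genes with a match and -0.06 in those without. Without scramble replicate 3, CALR also rose and CANX, ERO1B and DNAJC10 also fell. Genes with no match were then called in both directions too, such as ATF6 (lower) and P4HB (higher). Among the 8 ERSE genes the log2 fold change ran from -1.01 in HSPA5 to 0.61 in CALR. Over all 165 tested genes with any match, 13 fell and 6 rose.

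**Figure D2:**
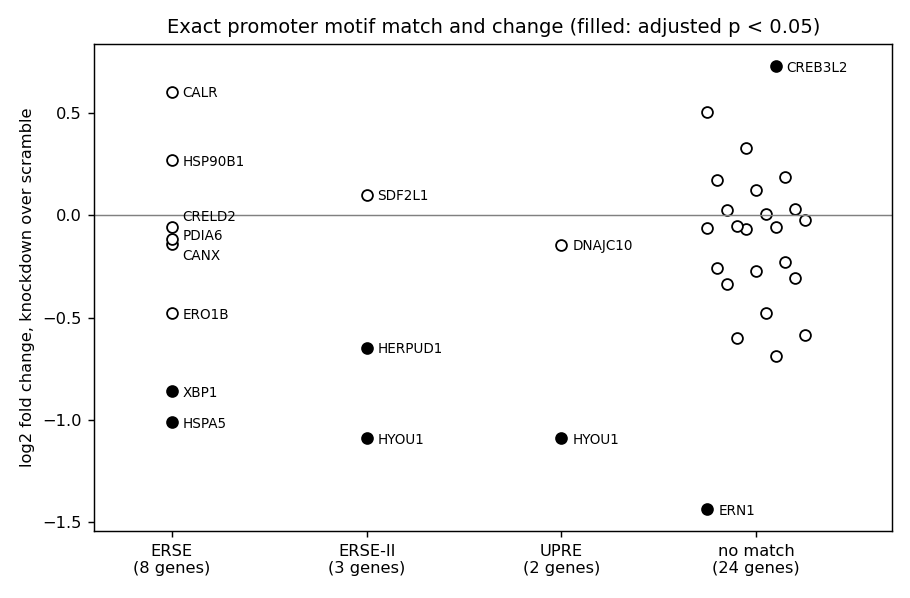
Log2 fold change of knockdown over scramble (all 6 libraries) for the 36 genes with a promoter in the RefSeq table, by exact motif match in the 300-base promoter window; HYOU1 has both an ERSE-II and a UPRE match and is drawn under each. Filled circles have an adjusted p under 0.05; the ERSE genes spread from -1.01 to 0.61.

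Among the sensors, the IRE1 gene and its substrate were lower and the PERK and ATF6 genes were not called with all 6 libraries. ERN1, the sensor with a kinase and an RNase domain that splices XBP1 mRNA, measured 99.4, 99.4 and 115 CPM in the scramble libraries and 40.2, 36.3 and 39.4 CPM in the knockdown libraries. The groups were far apart, with the knockdown libraries at 36.9% of the mean scramble level (log2 fold change -1.44, SE 0.15, adjusted p = 4.68e-04). ERN1 had the lowest log2 fold change of the 38 genes, and without scramble replicate 3 it was -1.36 (SE 0.06, adjusted p = 1.47e-14). XBP1, which encodes the transcription factor made after that splicing, measured 357, 342 and 493 CPM in the scramble libraries and 221, 223 and 212 CPM in the knockdown libraries. Scramble replicate 3 was the highest library, and the groups did not overlap without it either (log2 fold change -0.86, SE 0.17, adjusted p = 0.0118, and -0.68, adjusted p = 1.79e-12 without that library). XBP1 no longer passed when knockdown replicate 1 (-0.87, adjusted p = 0.0729), 2 (-0.88, adjusted p = 0.0711) or 3 (-0.84, adjusted p = 0.0843) was left out, while the ERN1 call was kept whichever library was left out.

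The PERK gene was called in neither fit, and both ATF6 genes were called once scramble replicate 3 was left out. EIF2AK3, the PERK gene, measured 35.5, 35.8 and 14.5 CPM in the scramble libraries and 30.4, 30.9 and 35.6 CPM in the knockdown libraries. Scramble replicate 3 was by far the lowest library, and the groups overlapped (log2 fold change 0.17, SE 0.31, adjusted p = 0.781, and -0.14, adjusted p = 0.147 without that library). ATF6, the Golgi-cleaved transcription factor of the ER membrane, measured 115, 113 and 74.5 CPM in the scramble libraries and 83.9, 85.2 and 81.5 CPM in the knockdown libraries. The groups overlapped only through scramble replicate 3 (log2 fold change -0.27, SE 0.19, adjusted p = 0.43), and in the fit without it ATF6 fell (-0.45, adjusted p = 9.42e-08). ATF6B, the related factor, was at 30.0, 30.2 and 46.2 CPM in the scramble libraries and 41.6, 39.4 and 40.3 CPM in the knockdown libraries, with scramble replicate 3 highest (0.19, adjusted p = 0.626), and rose in the fit without that library (0.42, adjusted p = 3.70e-05).

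CREB3L2 encodes an ER-membrane transcription factor that is cleaved like ATF6 and is known for driving secretory pathway genes. It was the 1 gene that edgeR called higher, at 157, 161 and 116 CPM in the scramble libraries and 242, 228 and 249 CPM in the knockdown libraries. Every knockdown library lay above every scramble library, and scramble replicate 3 was the lowest (log2 fold change 0.73, SE 0.17, adjusted p = 0.0218). In the other 5 libraries it was 0.59, adjusted p = 2.04e-10, and it no longer passed when knockdown replicate 1 (0.72, adjusted p = 0.114), 2 (0.76, adjusted p = 0.0965) or 3 (0.70, adjusted p = 0.125) was left out. The genes of the proteases that cut these factors showed small differences. MBTPS1, the site-1 protease, had 0.03, adjusted p = 0.938, and MBTPS2, the site-2 protease, had 0.13, adjusted p = 0.851 as log2 fold change. After leaving out that library, MBTPS1 rose (0.20, adjusted p = 8.95e-04) and MBTPS2 fell (-0.21, adjusted p = 9.83e-04). For the 8 genes as a group, 2 fell and 1 rose, against 5.64% and 5.89% of all genes tested. Without that library 4 fell and 3 rose, against 23.8% and 25.7%. The median log2 fold change went from 0.08 to -0.18.

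**Figure D3:**
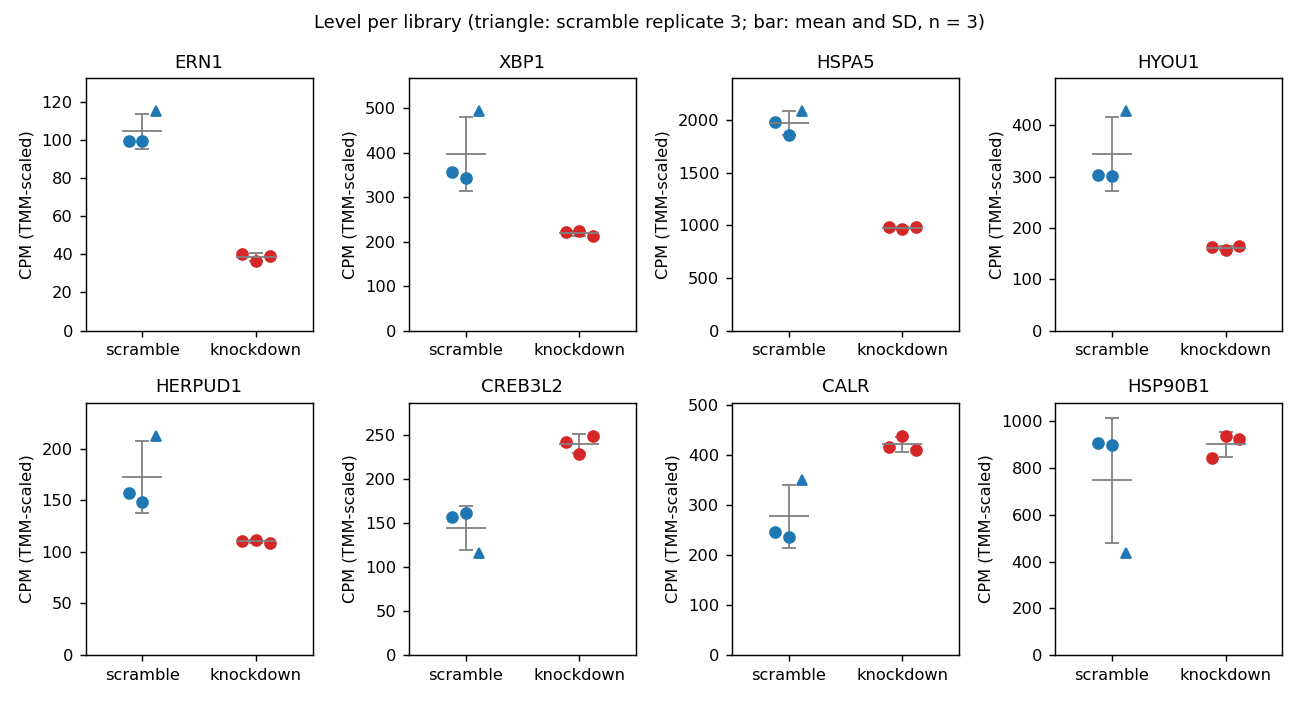
TMM-scaled CPM per library for the 6 called genes and for the chaperone genes CALR and HSP90B1; points are libraries, triangles are scramble replicate 3, and grey bars are the mean and SD of 3 libraries. The knockdown libraries lie below every scramble library for ERN1, XBP1, HSPA5, HYOU1 and HERPUD1 and above every one for CREB3L2 and CALR, while for HSP90B1 scramble replicate 3 alone is low.

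Of the chaperone genes, the BiP gene and its exchange factor HYOU1 fell, and edgeR called no other with all 6 libraries, while DESeq2 also called CALR higher. HSPA5, which encodes BiP, the Hsp70 of the ER that also binds the sensors, measured 1978, 1859.5 and 2083 CPM in the scramble libraries and 983, 968 and 982 CPM in the knockdown libraries. Scramble replicate 3 was near the other scramble libraries (mean 1974 ± 112 CPM, SD, n = 3), and all knockdown libraries lay far below them (log2 fold change -1.01, SE 0.12, adjusted p = 9.60e-04, and -0.97, adjusted p = 1.62e-17 without that library). HYOU1, also called GRP170, is a large Hsp70-related chaperone that exchanges nucleotide on BiP. It measured 304, 301 and 427 CPM in the scramble libraries and 162, 157 and 165 CPM in the knockdown libraries, with the 3 knockdown libraries close together and far below the lowest scramble library (log2 fold change -1.09, SE 0.17, adjusted p = 0.00392, and -0.90, adjusted p = 1.25e-14 without that library). The HSPA5 and HYOU1 calls were kept whichever library was left out.

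HSP90B1, the Hsp90 of the ER, was called in neither fit. It was at 906, 899.6 and 437 CPM in the scramble libraries and 841, 939 and 925 CPM in the knockdown libraries. Scramble replicate 3 was far below every other library, and without it the groups overlapped, with a log2 fold change of -0.002 (SE 0.04, adjusted p = 0.971). The cochaperone genes DNAJB11 (-0.06, adjusted p = 0.859), SDF2L1 (0.10, adjusted p = 0.8), CRELD2 (-0.05, adjusted p = 0.883) and MANF (-0.33, adjusted p = 0.342), most of which act beside BiP, were not called in either fit. DNAJB9, the J-domain cochaperone that holds IRE1 inactive through BiP, measured 50.2, 45.5 and 25.3 CPM in the scramble libraries and 27.7, 25.5 and 21.8 CPM in the knockdown libraries. Here scramble replicate 3 lay among the knockdown libraries (log2 fold change -0.69, SE 0.25, adjusted p = 0.12), and without it DNAJB9 fell (-0.94, adjusted p = 4.37e-09). DNAJC3, which inhibits PERK in the cytosol and serves BiP in the ER, had 0.03, adjusted p = 0.974 with all libraries and fell without scramble replicate 3 (-0.33, adjusted p = 5.36e-05).

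The lectin chaperone genes had log2 fold changes of opposite sign. CALR, the soluble calreticulin, measured 246, 237 and 350.4 CPM in the scramble libraries and 417, 439 and 412 CPM in the knockdown libraries. All 3 knockdown libraries were above all 3 scramble libraries, yet the test was missed by edgeR (log2 fold change 0.61, SE 0.18, adjusted p = 0.0585) and passed by DESeq2 (0.61, adjusted p = 0.0303) and without scramble replicate 3 (0.81, adjusted p = 9.47e-14). CANX, the membrane-bound calnexin, measured 1126, 1070.3 and 509 CPM in the scramble libraries and 824, 833 and 797 CPM in the knockdown libraries. Scramble replicate 3 was the lowest of all 6 libraries and the other scramble libraries the highest (log2 fold change -0.14, SE 0.26, adjusted p = 0.795), and without it CANX fell (-0.43, adjusted p = 1.29e-10). Of the 11 chaperone genes edgeR called 2 lower and 0 higher with all libraries (median log2 fold change -0.06), against 5.64% and 5.89% of all genes. Without scramble replicate 3, 5 fell and 1 rose (median -0.11), against 23.8% and 25.7%.

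Levels between genes were compared as FPKM, in which the authors scaled for length and depth. HSPA5 had the highest FPKM of the 39 genes in the scramble libraries, at 516, 488 and 504, followed by P4HB at 329, 333 and 460.3 and HSP90B1 at 327, 327 and 146. In scramble replicate 3 HSP90B1 lay below XBP1, at 205, 198 and 263 FPKM, and PDIA6, at 211, 203 and 237 FPKM, while in the other scramble libraries it lay above both and next to P4HB. After knockdown HSPA5 was at 240.2, 237 and 241 FPKM, below P4HB (352, 359.9 and 358) and HSP90B1 (285, 318 and 314) in every library. The summed FPKM of the 18 chaperone and oxidative folding genes was 2245, 2196 and 2134 in the scramble and 1870.3, 1920.2 and 1898 in the knockdown libraries. HSPA5 made up 23.0, 22.2 and 23.6% of this sum in the scramble and 12.8, 12.3 and 12.7% in the knockdown libraries. The other 17 genes together held 1729.5, 1708 and 1629 FPKM in the scramble and 1630.1, 1684 and 1657 FPKM in the knockdown libraries. These ranges overlap only through scramble replicate 3, since the other scramble libraries lay above every knockdown library. Against PDIA6, chosen after the values were seen because its GC content of 46.2% is close to the 46% of HSPA5, the FPKM ratio of HSPA5 was 2.45, 2.41 and 2.13 in the scramble and 1.23, 1.22 and 1.28 in the knockdown libraries, which do not overlap. At the low end of the order were ERO1B, at a mean of 4.29 FPKM in the scramble libraries, and DERL3, which had 1 count in knockdown replicate 2 and none elsewhere. For DERL3 a count of 0 allows up to 0.293 CPM, and the gene was not tested.

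Genes of oxidative folding had 0 of 7 called by edgeR, 0 at an unadjusted p under 0.05, 0 by DESeq2 and 0 by limma-voom. Over all genes tested, edgeR called 11.5%. The disulfide isomerase genes P4HB, PDIA3, PDIA4 and PDIA6 had log2 fold changes of -0.02, 0.07, -0.06 and -0.11, with SEs of 0.18, 0.13, 0.16 and 0.14. With scramble replicate 3 left out, P4HB (0.20, adjusted p = 4.31e-06), PDIA3 (0.13, adjusted p = 0.00407) and PDIA4 (0.10, adjusted p = 0.0253) rose by small amounts and PDIA6 was at -0.005 (SE 0.03, adjusted p = 0.929). The reductase gene DNAJC10, whose product reduces disulfides of proteins bound for degradation, was at 287, 288 and 126 CPM in the scramble libraries and 205, 209.5 and 221 CPM in the knockdown libraries. Scramble replicate 3 was the lowest library there (-0.14, adjusted p = 0.806), and without it DNAJC10 fell (-0.44, adjusted p = 4.12e-09).

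The oxidase genes lay on opposite sides of 0. ERO1A, which reoxidizes the disulfide isomerases and responds to hypoxia, measured 107, 109.9 and 58.1 CPM in the scramble libraries and 129, 129 and 132 CPM in the knockdown libraries. The knockdown libraries were above all scramble libraries (log2 fold change 0.51, SE 0.23, adjusted p = 0.215), and ERO1A rose without scramble replicate 3 (0.26, adjusted p = 6.30e-05). Its paralogue ERO1B, known from secretory cells such as those of the pancreas, measured 24.1, 27.2 and 12.6 CPM in the scramble libraries and 12.8, 17.2 and 15.9 CPM in the knockdown libraries. The groups overlapped only through scramble replicate 3 (log2 fold change -0.48, SE 0.28, adjusted p = 0.325), and ERO1B fell without it (-0.75, adjusted p = 5.87e-06). As FPKM, ERO1A was 4.07, 3.72 and 4.25 times ERO1B in the scramble and 9.31, 6.89 and 7.66 times in the knockdown libraries. Without scramble replicate 3 the 7 oxidative folding genes had 4 higher and 2 lower, against 25.7% and 23.8% of all genes tested there. Their median log2 fold change went from -0.06 to 0.10.

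In translocation and degradation, HERPUD1 fell, and 9 of 12 tested genes had a negative log2 fold change. HERPUD1, a membrane protein that helps to assemble the HRD1 ubiquitin ligase complex, measured 157, 149 and 213 CPM in the scramble libraries and 111, 111 and 109 CPM in the knockdown libraries. The 3 knockdown libraries lay close together and below all scramble libraries (log2 fold change -0.65, SE 0.17, adjusted p = 0.0414, and -0.47, adjusted p = 1.43e-08 without scramble replicate 3). HERPUD1 no longer passed with scramble replicate 1 left out (-0.72, adjusted p = 0.0607). The same held when knockdown replicate 1 (-0.65, adjusted p = 0.179), 2 (-0.66, adjusted p = 0.175) or 3 (-0.64, adjusted p = 0.191) was left out, or with the replicate number as a block (-0.63, adjusted p = 0.0684). SEC61A1, the pore subunit of the translocon, was at 336, 337 and 482 CPM in the scramble libraries and 255, 259 and 256 CPM in the knockdown libraries. The groups did not overlap, and SEC61A1 missed the edgeR test (log2 fold change -0.58, SE 0.17, adjusted p = 0.0619) and passed DESeq2 (-0.59, adjusted p = 0.0354) and the fit without scramble replicate 3 (-0.39, adjusted p = 5.25e-09). SEC61B, the beta subunit of the same pore, had -0.23, adjusted p = 0.499, and -0.03, adjusted p = 0.709 without that library.

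SELENOS, a selenoprotein that links the retrotranslocation complex to the ATPase p97, and WFS1, wolframin, an ER membrane protein known to restrain ATF6, also had groups that did not overlap. SELENOS measured 90.6, 87.9 and 123 CPM in the scramble libraries and 76.4, 68.5 and 71.2 CPM in the knockdown libraries (-0.48, adjusted p = 0.12). WFS1 measured 35.5, 34.9 and 51.4 CPM in the scramble libraries and 26.3, 27.1 and 26.9 CPM in the knockdown libraries (-0.60, adjusted p = 0.0784). Both fell in the fit without scramble replicate 3 (-0.31, adjusted p = 9.20e-05, and -0.40, adjusted p = 1.32e-04). SYVN1, the HRD1 ligase itself, had -0.26, adjusted p = 0.39, and -0.11, adjusted p = 0.131 without that library. Its knockdown libraries (64.1, 65.5 and 60.1 CPM) lay below all scramble libraries (69.1, 67.4 and 90.6 CPM). The SYVN1 partner SEL1L was at 168, 172 and 68.1 CPM in the scramble libraries and 108, 104 and 118 CPM in the knockdown libraries. For SEL1L, scramble replicate 3 was the lowest and the other scramble libraries the highest of the 6 (-0.31, adjusted p = 0.601), and it fell without scramble replicate 3 (-0.63, adjusted p = 5.24e-10).

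The mannosidase-like EDEM genes, whose products mark misfolded glycoproteins, and the derlin genes, whose products take part in the exit from the ER, were not called. EDEM1 (0.01, adjusted p = 0.989), EDEM2 (-0.06, adjusted p = 0.866) and EDEM3 (0.33, adjusted p = 0.612) had no call, and without scramble replicate 3 EDEM1 fell (-0.19, adjusted p = 0.0021). DERL1 was at 169, 157 and 180.0 CPM in the scramble libraries and 195, 185 and 188 CPM in the knockdown libraries, with the knockdown libraries above all scramble libraries (0.17, adjusted p = 0.513), and rose by a small amount without scramble replicate 3 (0.22, adjusted p = 3.27e-04). DERL2 had -0.05, adjusted p = 0.875, and -0.03, adjusted p = 0.757 without that library. Of the 12 tested genes 1 fell and 0 rose, against 5.64% and 5.89% of all genes, and the median was -0.24. Without scramble replicate 3, 6 fell and 1 rose (median -0.15), against 23.8% and 25.7%.

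The place of scramble replicate 3 among the libraries went with GC content, and transcript length was not set apart from it. Its log2(CPM + 0.5) minus the mean of the other scramble libraries ran from -1.50 in DNAJC3 (GC content 39.9%) to 0.61 in ATF6B (57.6%), and 14 of the 38 genes were lower in it, all with a GC content of 50.6% or less. Across the 38 genes, which share the libraries, the Pearson correlation of this difference with GC content was 0.795. Among all genes tested, the median difference went from -1.0 in the lowest of 10 bins of GC content to 0.49 in the highest. It was 0.31 in the bin with a median GC content of 51.0%, while CREB3L2, at 50.6%, was below 0. Genes lower in this library included long ones such as SEL1L (7919 bases) and CREB3L2 (7350), and shorter ones such as HSP90B1 (2879) and DNAJB9 (2538). The part of length was not tested. The genes that fell had differences of 0.12 (HSPA5), 0.21 (ERN1), 0.48 (HERPUD1), 0.49 (XBP1) and 0.50 (HYOU1), and CREB3L2, which rose, had -0.46. In each of these 6 genes this library lay further from the knockdown level than the mean of the other scramble libraries, and the part of this shift in the results was not tested. With a spline correction for GC content and length, 16 of the 38 fell and 4 rose, or 52.6% in all, against 34.3% of 14231 genes in either direction, 18.9% lower and 15.3% higher. Those 6 called with all libraries kept their calls and directions under this correction.

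**Figure D4:**
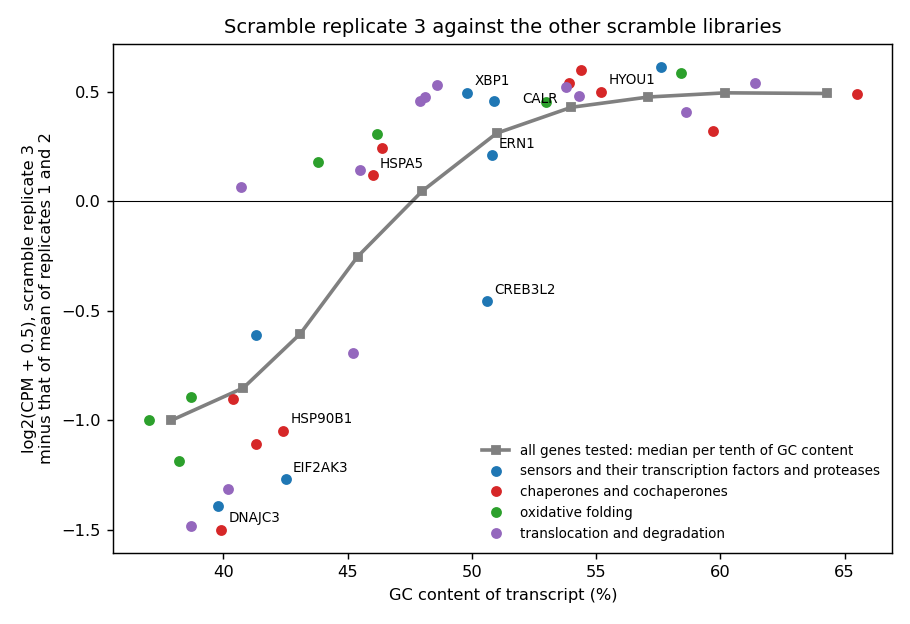
Scramble replicate 3 minus the other scramble libraries' mean, on the log2(CPM + 0.5) scale, against the GC content of the transcript for the 38 tested genes (points, coloured by role), with the median of all genes tested in each of 10 bins of GC content (grey). Low-GC genes such as DNAJC3, EIF2AK3 and HSP90B1 lie far below 0, and HSPA5 lies near 0.

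A further 97 genes of the pathway, also chosen with earlier results of these data known, were read in 6 lists. Among them, 94 were tested. Of these, edgeR called 11 lower (against 5.64% of all genes) and 0 higher (against 5.89%), and DESeq2 called 2 higher, TMX1 and FAM8A1. In the fit without scramble replicate 3, 38 of the 94 fell (against 23.8%) and 24 rose, a share close to the 25.7% of all genes. The effectors downstream of PERK had the lowest median, with 5 of 8 lower and 0 higher and a median log2 fold change of -1.04, although EIF2AK3 was not called. PPP1R15A, the phosphatase subunit GADD34 that ends the PERK signal, went from 255 ± 60.5 to 68.8 ± 2.43 CPM (SD, n = 3 each; adjusted p = 3.44e-04 by edgeR). DDIT3, the death-linked transcription factor CHOP, had -1.42, adjusted p = 0.00131, and TRIB3, a pseudokinase induced by ATF4 and CHOP, had -1.16, adjusted p = 0.00349. These 3 genes had log2 fold changes of -1.68, -1.24 and -0.95 without scramble replicate 3. PPP1R15B, the constitutive counterpart of PPP1R15A, was on the other side of 0 and was not called with all 6 libraries (0.58, adjusted p = 0.0937). It rose without scramble replicate 3 (0.39, adjusted p = 1.61e-07). These effectors also answer to other kinases of the integrated stress response, so they are not markers of PERK alone. PPP1R15B had the smallest p of the uncalled genes of its list. The uncalled genes named from the other lists were picked in the same way, apart from TMX1, so they do not stand for the rest.

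Of 21 tested further folding enzymes edgeR called 4 lower and 0 higher with all 6 libraries (median log2 fold change -0.11), against 5.64% and 5.89% of all genes tested. Without scramble replicate 3, 8 fell and 4 rose, against 23.8% and 25.7% of all genes tested there. The 3 with the smallest p-values were TXNDC12, a small thioredoxin-like oxidoreductase (-1.09, adjusted p = 0.00406), FKBP10, a prolyl isomerase for collagen (-1.08, adjusted p = 0.0041), and CLGN, calmegin, a calnexin homologue (-1.60, adjusted p = 0.00726). SIL1, a nucleotide exchange factor of BiP like HYOU1, was not called with all 6 libraries (-0.51, adjusted p = 0.0899). It fell without scramble replicate 3 (-0.38, adjusted p = 9.46e-05). TMX1, a membrane-bound thioredoxin-like oxidoreductase named after its values were seen, missed the edgeR test (0.72, adjusted p = 0.0974) and was called higher by DESeq2 and without scramble replicate 3 (0.47, adjusted p = 1.10e-06). In glycan transfer and trimming STT3A, a catalytic subunit of the oligosaccharyltransferase, fell (-0.78, adjusted p = 0.0187), where edgeR called 5.64% of all genes tested lower. The other 13 genes were not called with all 6 libraries. Among them OSTC, a further subunit (-0.32, adjusted p = 0.2), fell without scramble replicate 3 (-0.35, adjusted p = 8.18e-06). Of the 14 genes, 6 fell and 3 rose in that fit. SEC61A2, the paralogue of SEC61A1, was the 1 of 18 further translocon genes that fell with all 6 libraries (-0.57, adjusted p = 0.0449), against 5.64% of all genes tested. TRAM1, a membrane protein beside the pore, was not called there (-0.70, adjusted p = 0.099) and fell without scramble replicate 3 (-0.95, adjusted p = 6.87e-13). In the latter fit 10 of the 18 fell and 3 rose. DESeq2 called TRAM1 and did not call SEC61A2. With all 6 libraries edgeR called 0 of 22 further degradation genes and 0 of 11 tested partners of IRE1 and ATF6, against 11.5% of all genes tested. At an unadjusted p under 0.05 were 4 and 1, with no share over all genes taken at that cut. Without scramble replicate 3, it called 8 of the 22 higher and 6 lower, and 4 of the 11 higher and 2 lower. Of all genes tested in that fit, 25.7% were called higher and 23.8% lower. DESeq2 called 2 of the degradation genes, FAM8A1 among them, and 0 of the partners, and limma-voom called 0 of either. FAM8A1, a component of the HRD1 complex, was above 0 (0.89, adjusted p = 0.073), and CREB3L4, a relative of CREB3L2, was below it (-0.53, adjusted p = 0.124). In the fit without scramble replicate 3, FAM8A1 rose (0.61, adjusted p = 8.33e-06) and CREB3L4 fell (-0.32, adjusted p = 0.0122).

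**Figure D5:**
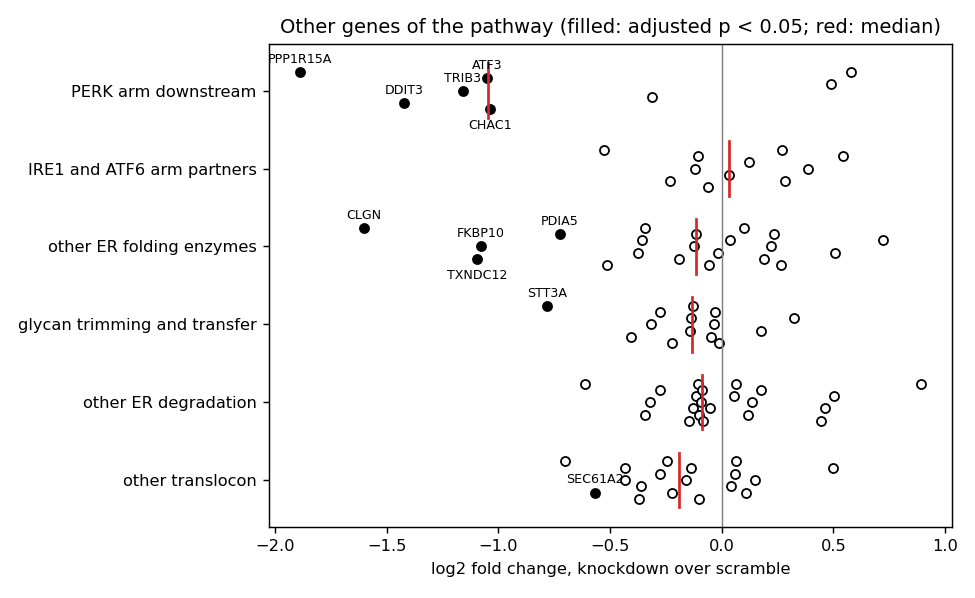
Log2 fold change of knockdown over scramble with all 6 libraries for 94 tested genes of 6 further lists of the pathway; filled circles have an adjusted p under 0.05 by edgeR and red lines are list medians. The 5 called effectors downstream of PERK lie between -1.89 and -1.04, and the medians of the other lists lie between -0.19 and 0.03.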

How the data were processed

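Polyadenylated RNA of A549 cells was sequenced on an Illumina HiSeq in 3 scramble and 3 C19orf12 shRNA libraries, per the labels' protocols. The deposited gene files hold expected counts, which the authors estimated per Entrez gene, per the file headers. They also hold FPKM, which the authors scaled for gene length and depth, per the file headers. RSEM, Bowtie2, BWA and hg19 are named in the submitters' processing notes; versions, settings and roles: not given in the sources used here. Sequences and names come from separate RefSeq tables, and no coordinates were moved between builds.

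Rounding made the counts whole, and genes absent from a file were taken as 0. In scramble replicate 3, 1 row without an Entrez identifier, with 2 counts, was left out. Of 20823 genes, 20727 matched a symbol, and the 96 others held 0.147% of counts. Genes were filtered with filterByExpr (minimum count 10, minimum total 15), scaled by TMM and tested with edgeR's quasi-likelihood test (edgeR 4.0.16, R 4.3.3), two-sided, with Benjamini-Hochberg adjustment over all genes tested and a threshold of 0.05. The fit used all 6 libraries, without blocking. It was repeated without scramble replicate 3. FPKM was used only to compare levels between genes. CPM here is TMM-scaled. Depth of about the same size in every library puts the limit that a count of 0 allows (3 counts) at 0.282 to 0.293 CPM, for counting error only.

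Replicates differed by more than sampling noise in every pair, and the fit took each library as 1 sample. That excess does not show that the replicates were separate cultures. The alternatives were leaving out each library, the replicate block, DESeq2 1.42.0, limma-voom (limma 3.58.1) with and without quality weights, other scaling and filters, a GC and length spline (5 degrees of freedom) and a test against a 1.5-fold change. The scripts were tested on simulated data. All 39 genes are named, and from each further list up to 3 called genes with the smallest p and 1 not called. The latter was the gene with the smallest p among those not called. TMX1 was named in addition. Some genes of these lists are not reported here by name. The genes and lists were chosen with earlier results of these data known.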

Additional observations from a re-analysis of the deposited data

How the results depend on the processing

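The calls of ERN1, HSPA5 and HYOU1 kept their direction and stayed under an adjusted p of 0.05 in each of the 17 alternatives, and XBP1 and CREB3L2 in 13 and HERPUD1 in 11. With all 6 libraries 6 of the 38 genes were called. Leaving out 1 library in turn gave 3 to 26 calls, 0 to 9 of them higher and 3 to 17 lower, while the share of all genes called ran from 4.85 to 49.5%; the counts of 26, 9 and 17 are those without scramble replicate 3, and 3, 0 and 3 were obtained without any 1 of the knockdown replicates. Groups that did not overlap numbered 14, and 14 to 30 with 1 library left out, against 37.0% of all genes and 41.5 to 64.8%. Library quality weights (limma-voom) gave 26 calls with 9 higher and 17 lower (49.5% of all genes called), the GC and length spline 20 with 4 and 16 (34.3%), and the spline with the replicate block 18 with 3 and 15 (29.6%). DESeq2 called 8 genes, 2 of them higher (12.8%). A test against a 1.5-fold change (glmTreat) left 3 genes, ERN1, HSPA5 and HYOU1, all lower and 0 higher (3.98% of all genes). Without scramble replicate 3, leaving out each other library as well, chosen after seeing the data, gave 24 to 27 calls, with 38.0 to 46.4% of all genes called; where 1 scramble library was left, it was assumed to vary like the knockdown libraries.

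With the replicate number as a block 5 genes were called, 1 higher and 4 lower (11.2% of all genes called), and the HERPUD1 call was the one lost. The correlations of same-numbered libraries in their deviations from group means were -0.024, -0.018 and -0.023. The group mean includes scramble replicate 3, so the shift of that library enters the deviation of every scramble library. These values therefore cannot decide whether the numbers pair the samples, and the main fit was without a block.

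Genes that were not called with all 6 libraries changed sign in some settings; the cause was not tested. With 1 library left out the log2 fold changes ran from -0.14 to 0.36 in EIF2AK3, -0.069 to 0.20 in MBTPS1, -0.21 to 0.32 in MBTPS2, -0.0021 to 0.42 in HSP90B1, -0.43 to 0.041 in CANX, -0.11 to 0.029 in DNAJB11, -0.33 to 0.24 in DNAJC3, -0.0078 to 0.29 in SDF2L1, -0.16 to 0.061 in CRELD2, -0.16 to 0.10 in PDIA4, -0.13 to 0.20 in P4HB, -0.44 to 0.028 in DNAJC10, -0.19 to 0.11 in EDEM1, -0.16 to 0.11 in EDEM2, -0.022 to 0.56 in EDEM3. With limma-voom and library quality weights, the value was on the other side of 0 in EIF2AK3 (-0.13), MBTPS2 (-0.19), DNAJB11 (0.025), DNAJC3 (-0.31), CRELD2 (0.058), PDIA4 (0.10), P4HB (0.19), EDEM1 (-0.18), EDEM2 (0.11), EDEM3 (-0.0039). With upper-quartile scaling, the value was on the other side of 0 in MBTPS1 (-0.0062), DNAJC3 (-0.0026), EDEM1 (-0.024). With the GC and length spline, the value was on the other side of 0 in MBTPS2 (-0.027), DNAJC3 (-0.13), CRELD2 (0.050), PDIA3 (-0.14), P4HB (0.079), EDEM1 (-0.14), EDEM2 (0.021). With that spline and the replicate block, the value was on the other side of 0 in MBTPS2 (-0.0095), DNAJC3 (-0.11), CRELD2 (0.051), PDIA3 (-0.11), P4HB (0.080), EDEM1 (-0.14), EDEM2 (0.021). With the replicate block alone, the value was on the other side of 0 in P4HB (0.0072). With limma-voom, the value was on the other side of 0 in P4HB (0.0072).

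DERL3, with 1 count in all, was the gene for which depth allowed no comparison.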
